A study of Mus musculus with 12 samples.

Results

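Mice that received cisplatin together with daily sensory stimulation (Cisplatin stim) were compared with mice that received the PBS vehicle and no stimulation (PBS nonstim), to measure how far the hippocampus stood from the untreated state at the end of the stimulated course. These are 6 of the study's 12 single-cell RNA-seq libraries, 3 per group by title, and they hold 9217 of the 19834 deposited cells: 5989 from PBS nonstim and 3228 from Cisplatin stim. All animals were female C57/BL6J mice aged 9 weeks. The stimulation paired a 40 Hz light flicker with 40 Hz sound pulses for 1 h a day over 21 days, starting with the first cisplatin injection, and hippocampi were taken on day 22. Replicate 1 of each group came from 1 animal per the series' design text, while the extraction protocol of every library describes 2 pooled animals; it was treated as a separate batch. Replicates 2 and 3 each pooled 2 animals, so that no value below belongs to a single animal in those libraries. The groups differ in both drug and stimulation, and the effects of the 2 cannot be told apart within this comparison. For that reason the libraries of mice given cisplatin without stimulation (Cisplatin nonstim, 3 libraries) are set beside it where a gene is described in detail.

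Cisplatin is a platinum drug that crosslinks DNA and activates the p53 pathway, in which the transcription factor p53 induces genes for cell cycle arrest (Cdkn1a), survival checks and cell death (Bbc3, Fas). The hippocampus holds neurons of the memory circuit and a zone where new neurons are made. Its oligodendrocytes wrap axons in myelin, a membrane rich in cholesterol and galactolipids. Glucocorticoids, the adrenal stress hormones, act through a nuclear receptor that induces a shared set of genes in many cell types, among them Fkbp5, Zbtb16, Sult1a1 and Plin4.

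The libraries of the comparison held between 992 and 2772 cells and between 6037875 and 16835507 UMIs (unique molecular identifiers, each one counted transcript). Each cell type assigned by the authors carried its own markers at the highest level of any type over these 6 libraries, by between 1.66 times (endothelial markers, next highest in pericytes) and 90.4 times (choroid plexus markers). No cell was marked as a doublet in the deposited table, and 112 of the 19834 cells shared a barcode with a cell of another library, 42 of them with a cell of the same type. The median mitochondrial share of UMIs per cell was 10.7%, 3.86% and 4.65% in PBS nonstim replicates 1 to 3 and 17.6%, 5.12% and 4.98% in Cisplatin stim. Ribosomal RNA-like transcripts (Gm42418, AY036118 and Lars2, which pick up ribosomal RNA) made up 0.542%, 2.40% and 3.65% of UMIs in PBS nonstim and 0.393%, 0.613% and 0.782% in Cisplatin stim, so within the second batch the groups do not overlap on this measure of RNA composition. Replicates 2 and 3 were at 3.59% and 1.87% in PBS stim and at 0.417% and 0.493% in Cisplatin nonstim. Within the second batch the share thus followed the drug, and the 2 cannot be told apart there. When that share was added to the model, 579 genes were called in place of 3404. The part of the share in any one result was not tested beyond this fit.

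Over the 9 cell types with enough cells, 3404 of 69488 gene tests differed between Cisplatin stim and PBS nonstim (4.9%; edgeR's quasi-likelihood test on counts summed per library and cell type, Benjamini-Hochberg adjusted p under 0.05 within each type). Oligodendrocytes had the largest share of genes called, with 832 genes higher and 862 lower of 10094 (16.8%). Neurons followed with 364 higher and 87 lower of 6561 (6.87%), and microglia with 398 higher and 258 lower of 9903 (6.62%). Endothelial cells had 152 higher and 80 lower of 8145 (2.85%), and astrocytes 154 and 123 of 10163 (2.73%). Oligodendrocyte precursor cells (OPCs) had 43 and 8 of 7684 (0.664%), and pericytes, the contractile cells of capillary walls, 32 and 10 of 6591 (0.637%). Among immune cells 1 gene was higher of 2395 (0.0418%). In the choroid plexus, the epithelium that secretes cerebrospinal fluid, none of 7952 genes passed (0%) with edgeR, while 1394 had an unadjusted p under 0.05 and DESeq2 called 65. The total fell to 1616 without PBS nonstim replicate 3, to 1779 without Cisplatin stim replicate 2 and to 2051 without PBS nonstim replicate 2. Ordered by median absolute log2 fold change over all tested genes, the types ranked differently. It was 0.430 in neurons, 0.371 in choroid plexus, 0.326 in immune cells, 0.275 in pericytes and 0.253 in oligodendrocytes. In the other tested types it lay between 0.219 and 0.232.

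**Figure D1:**
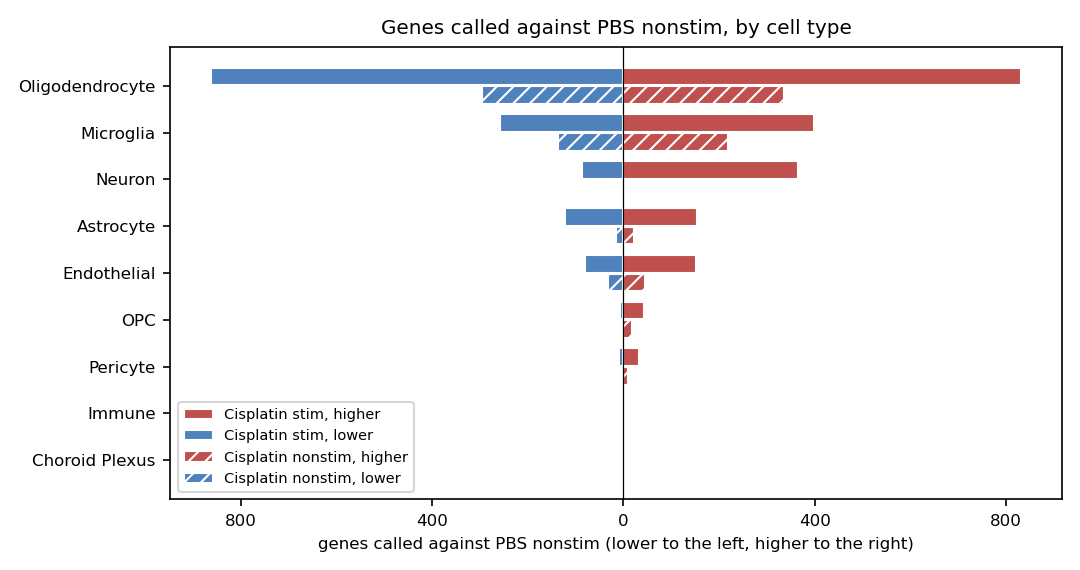
Number of genes called higher or lower than PBS nonstim (x axis) in each of the 9 tested cell types (y axis), for Cisplatin stim and for Cisplatin nonstim, which share the PBS nonstim libraries. Oligodendrocytes had 832 genes higher and 862 lower in Cisplatin stim, the longest bars of the plot.

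In oligodendrocytes the gene furthest above control was Cdkn1a (chromosome 17, 29090976 to 29100727, GRCm38), which encodes the cell cycle inhibitor p21. It stood at 2.82, 6.40 and 0.391 counts-per-million units (CPM, per library and cell type) in the PBS nonstim libraries and at 962, 263 and 242 CPM in Cisplatin stim. Every stimulated cisplatin library lay far above every control library, with a log2 fold change of 6.89 ± 0.42 (standard error, n = 3 against 3; edgeR adjusted p = 1.75e-09). Cxcl12, a chemokine that guides leukocytes and neural progenitors, stood at 5.24, 2.48 and 5.48 CPM in controls and at 133, 133 and 137 CPM in Cisplatin stim (log2 fold change 4.96 ± 0.28, edgeR adjusted p = 8.08e-10). Its 3 stimulated libraries were nearly equal across both batches. Itgad, an integrin alpha chain known from leukocytes, rose from 17.3, 13.4 and 12.1 to 173, 175 and 165 CPM (3.64 ± 0.19, edgeR adjusted p = 2.36e-10), the smallest p of this cell type, again with no overlap. Itih5, a hyaluronan-binding matrix protein, rose by 3.49 ± 0.23 on the log2 scale.

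Most p53 targets did not pass in these cells. Of 16 tested members of a 25-gene list of p53 targets, 3 rose and none fell, where 8.24% of all genes were higher: Cdkn1a, Bbc3 (the death-promoting protein PUMA, 1.88 ± 0.24) and Sesn1 (a stress-induced inhibitor of growth signalling, 0.82 ± 0.17). Other canonical targets, picked here after their values were seen, gave log2 fold changes near 0 and did not pass: Mdm2 at 0.29, Ccng1 at 0.11, Bax at -0.10 and Phlda3 at -0.17. Bcl2l1, which encodes the survival protein Bcl-xL, rose by 0.74 ± 0.09. The p53 count was 5 without PBS nonstim replicate 1, 4 with 1 lower without Cisplatin stim replicate 1, and 6 with 2 lower in the second batch alone.

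Cdkn1a is also known as a glucocorticoid-induced gene and belongs to that list too, whose members mostly rose. Of 20 listed glucocorticoid-induced genes 18 were tested in oligodendrocytes, 16 were higher and none lower, against the same background; the median log2 fold change was 1.86 over the 18 and 0.01 over all genes. Tsc22d3 (GILZ) at 0.02 ± 0.13 and Errfi1 at -0.06 were the 2 that did not pass. Fkbp5, the co-chaperone that dampens the glucocorticoid receptor, went from 6.04, 7.43 and 4.89 CPM to 71.0, 81.5 and 72.5 CPM (3.72 ± 0.31, edgeR adjusted p = 1.18e-07). Plin4, a coat protein of lipid droplets, went from 12.1, 12 and 4.11 to 172, 98.7 and 84.3 CPM (3.61 ± 0.21). Sult1a1, a sulfotransferase, was nearly absent from controls at 0.805, 0.619 and 0.196 CPM and reached 47.3, 16.5 and 18.1 CPM (5.47 ± 0.46). For these 3 genes every stimulated library lay above every control library. Hif3a, a relative of the hypoxia-inducible factors (4.75 ± 0.42), the zinc finger repressor Zbtb16 (2.73 ± 0.28; named after its value was seen), Ddit4, an inhibitor of mTOR signalling (1.64 ± 0.16), Nfkbia, the inhibitor of NF-kB (1.40 ± 0.15), and the clock gene Per1 (1.22 ± 0.19) rose as well. The number of members called higher stayed between 15 and 16 whichever library was left out, and was 14 with the ribosomal RNA-like share in the model.

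**Figure D2:**
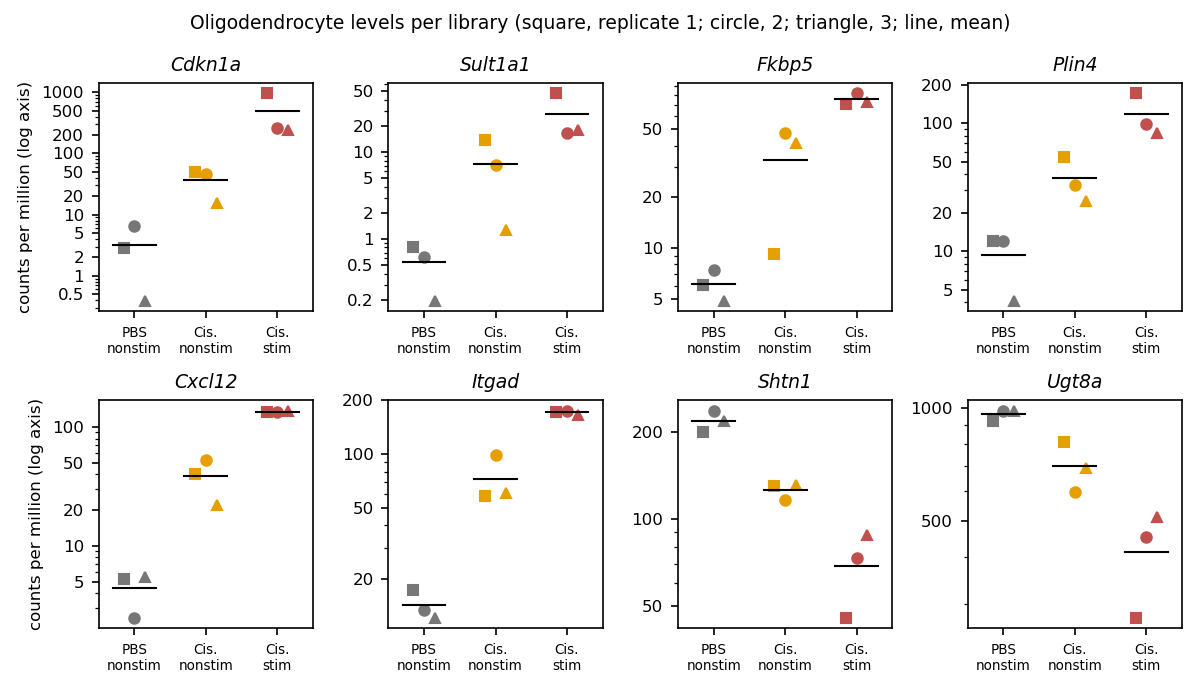
Level in CPM (y axis, log scale) of 8 genes in oligodendrocytes of each library, by group, with the group mean as a line. Cdkn1a, Sult1a1, Fkbp5, Plin4, Cxcl12 and Itgad are high in all 3 Cisplatin stim libraries and low in all 3 PBS nonstim libraries, and Shtn1 and Ugt8a show the reverse.

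A promoter of Cdkn1a and that of Mt1, which encodes a metal-binding metallothionein, are shown because both genes rose and these promoters hold a short motif of the p53 or glucocorticoid pathway. Each is 250 bases before to 50 bases after a RefSeq start on GRCm38.p6, plus strand, with the matches on either strand in capitals: p53 half-sites in Cdkn1a (chr17:29090729-29091028) and ACANNNTGT, the core of the glucocorticoid response element, in Mt1 (chr8:94178839-94179138).
Cdkn1a: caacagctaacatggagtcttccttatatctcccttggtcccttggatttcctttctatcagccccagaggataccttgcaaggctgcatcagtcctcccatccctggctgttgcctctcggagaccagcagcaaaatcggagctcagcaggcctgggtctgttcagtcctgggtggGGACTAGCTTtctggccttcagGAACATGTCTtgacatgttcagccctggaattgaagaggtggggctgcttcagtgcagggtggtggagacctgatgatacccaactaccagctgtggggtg
Mt1: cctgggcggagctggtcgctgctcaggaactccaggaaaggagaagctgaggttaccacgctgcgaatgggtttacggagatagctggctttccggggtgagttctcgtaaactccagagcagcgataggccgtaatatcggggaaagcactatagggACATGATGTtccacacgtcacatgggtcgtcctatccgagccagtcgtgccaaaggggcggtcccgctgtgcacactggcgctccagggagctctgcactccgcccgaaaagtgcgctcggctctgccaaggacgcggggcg
The p53 half-sites of Cdkn1a begin 73 and 51 bases before the start, and the match in Mt1 begins 92 bases before its own. Another promoter of Cdkn1a (chr17:29093519-29093818) holds no match to either motif. A p53 half-site occurred in 8.36% of 32851 promoters of this length. Counted by gene, it occurred in promoters of 9.55% of 27025 genes and of 9 of the 18 p53 list genes with an entry. ACANNNTGT, which reads the same on both strands, occurred in 6.85% of all promoters and, by gene, in those of 7.90% of all genes. Among the 15 matched glucocorticoid genes called higher in oligodendrocytes it occurred in those of 2, Mt1 and Sgk1. A match is a description of these letters and says nothing about binding. Mt1 rose from 625, 1041 and 690 to 3736, 1919 and 2135 CPM (1.75 ± 0.24, edgeR adjusted p = 4.93e-05), and its neighbour Mt2 by 1.98 ± 0.31. The lowest stimulated library for Mt1 was 1919 CPM, above the highest control.

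Lipid and stress genes of oligodendrocytes moved in both directions. Pnpla2, the lipase ATGL that opens lipid droplets, went from 34.2, 30.6 and 29.9 to 287, 130 and 104 CPM (2.35 ± 0.19). Apod, a lipid-binding apolipoprotein that was already abundant in controls, went from 3119, 2648 and 2986 to 6927, 7282 and 6447 CPM (1.24 ± 0.11). Both were higher in every stimulated library than in any control. By contrast, the enzymes of lipid synthesis that passed were mostly lower. Of 28 tested genes of cholesterol and fatty acid synthesis, 8 fell and 3 rose, where 8.54% of all genes were lower: the isoprenoid enzyme Idi1 by -0.99 ± 0.15, the sterol demethylase Cyp51 by -1.11 ± 0.18 and the fatty acid elongase Elovl6 by -1.10 ± 0.16, while Insig1, which holds back sterol synthesis, rose by 1.00 ± 0.13. That count of lower genes was 5 without PBS nonstim replicate 1, 4 without PBS nonstim replicate 3, 4 without Cisplatin stim replicate 1 and 2 with the ribosomal RNA-like share in the model.

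Among 23 myelin and mature oligodendrocyte genes 8 fell and 5 rose, where 8.54% of all genes were lower and 8.24% higher, so the list did not move one way. With the ribosomal RNA-like share in the model 7 were lower and 2 higher. Ugt8a makes galactosylceramide, the main glycolipid of myelin, and fell from 923, 982 and 982 to 275, 453 and 511 CPM (-1.23 ± 0.16, edgeR adjusted p = 2.02e-05). Cryab, a small heat shock protein, fell by -1.12 ± 0.10. Mobp, a protein of compact myelin, rose by 0.74 ± 0.11, and Mbp, the major myelin basic protein, by 0.32. Shtn1, the actin-linked protein shootin, had the smallest p among the lower genes: it stood at 201, 237 and 218 CPM in controls and at 45.3, 73.3 and 87.9 CPM in Cisplatin stim (-1.67 ± 0.14, edgeR adjusted p = 1.63e-07). Levels in the stimulated libraries were below all controls for both Ugt8a and Shtn1. The hyaluronan-binding protein Itih3 (-1.69 ± 0.15), the endocytic adaptor Sh3kbp1 (-1.35 ± 0.13), the sorting receptor Sort1 (-0.85 ± 0.10) and the glutamate receptor subunits Gria4 (-1.22 ± 0.17) and Grik2 (-1.54 ± 0.24) also fell.

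Of 15 tested genes of endoplasmic reticulum chaperones and the unfolded protein response, 6 fell in oligodendrocytes and 1 rose. Of all genes there 8.54% were lower and 8.24% higher. Hsp90b1, the reticulum's HSP90 (GRP94), fell from 617, 487 and 369 to 238, 272 and 227 CPM (-0.97 ± 0.14), and the disulfide isomerase Pdia6 fell by -0.76 ± 0.16. Of the lower members 3 passed without Cisplatin stim replicate 1 and 8 without Cisplatin nonstim replicate 1. Nuclear genes of oxidative phosphorylation passed in 19 of 78 cases, all higher, where 8.24% of all genes were higher. The complex I subunit Ndufv1 (0.66 ± 0.10) was 1 of the 19. Of these, 2 passed with the ribosomal RNA-like share in the model, 9 without PBS nonstim replicate 3 and 12 without each of PBS nonstim replicate 2, Cisplatin stim replicate 1 and Cisplatin stim replicate 2. Replicate 1 held a cluster of oligodendrocytes (cluster 11) that made up 29.7% of the type in PBS nonstim and 31.6% in Cisplatin stim. Leaving it out, an alternative added after the data were seen, gave 1415 called genes in place of 1694. Of the 13 mitochondrially encoded genes 4 were higher and 1 lower in the main fit, and 0 and 2 without cluster 11.

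In microglia, the resident immune cells of the brain, the same comparison showed higher Ddit4 and Fkbp5 and lower genes of the resting state. Ddit4 stood at 10.0, 21.1 and 17.6 CPM in PBS nonstim and at 85.5, 198 and 216 CPM in Cisplatin stim (3.39 ± 0.24, edgeR adjusted p = 1.05e-08), and Fkbp5 went from 48.7, 84.7 and 74.1 to 133, 291 and 249 CPM (1.69 ± 0.15). Replicate 1 was the lowest of each group for both, and even so no stimulated library reached down to a control. Jdp2, a partner of the AP-1 transcription factors, rose by 2.15 ± 0.20, and Lsp1, an actin-binding protein of leukocytes, by 1.57 ± 0.16. Of 14 tested glucocorticoid genes 7 rose, where 4.02% of all genes were higher, and 1, the kinase Sgk1, fell (-0.77). With the ribosomal RNA-like share in the model 2 were higher and none lower. Cdkn1a gave -0.19 ± 0.29 in these cells and did not pass, with 327 CPM in Cisplatin stim replicate 1 against 65.4 and 80.2 CPM in the others; it is named here after its value was seen.

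Of 19 tested genes that mark homeostatic microglia, 9 fell and none rose, where 2.61% of all genes were lower. Fcrls, a microglial Fc receptor-like scavenger protein, went from 1967, 1589 and 1438 to 889, 640 and 844 CPM (-1.06 ± 0.11, edgeR adjusted p = 4.79e-06). Cst3, the secreted protease inhibitor cystatin C and one of the most abundant microglial transcripts, went from 48897, 50271 and 49480 to 28445, 23446 and 31958 CPM (-0.83 ± 0.11). Both sets of libraries were apart, and Olfml3 (-0.79 ± 0.11), a secreted matrix protein, behaved alike, whereas the receptor gene Csf1r (-0.06) and Tmem119 (-0.19), looked up after their values were seen, did not pass. The count of 9 was 5 without PBS nonstim replicate 2, 3 without each of PBS nonstim replicate 3, Cisplatin stim replicate 1 and Cisplatin stim replicate 2, and 2 with the ribosomal RNA-like share in the model.

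Tnf, Cxcl2 and Apoe were among the genes higher in microglia. Tnf, the cytokine tumour necrosis factor, stood at 319, 241 and 273 CPM and at 1639, 507 and 324 CPM (1.21 ± 0.22, edgeR adjusted p = 0.00214). Its excess was largest in Cisplatin stim replicate 1, and replicate 3 lay just above the highest control. Cxcl2, a neutrophil attractant, went from 116, 21.3 and 35.8 to 380, 53.9 and 81.8 CPM (1.47 ± 0.18), with overlap between groups because replicate 1 was high in both. Of 17 inflammatory genes 4 rose and none fell, where 4.02% of all genes were higher, and 2 were called higher without Cisplatin stim replicate 2. Apoe, the main lipid carrier of the brain, went from 679, 940 and 624 to 2566, 1569 and 1847 CPM (1.40 ± 0.22) with no overlap, yet the list of disease-associated microglial genes had 2 higher and 2 lower of 21, against 4.02% and 2.61% of all genes. The lower ones included Lgals3 (-2.65 ± 0.48), and 1 was lower without PBS nonstim replicate 2 or 3, Cisplatin nonstim replicate 2 or Cisplatin stim replicate 2.

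Immediate early genes, which respond within minutes to stimuli and to tissue dissociation, were lower in 7 and higher in 2 of 23 cases in microglia: Atf3 by -0.83 ± 0.14, Egr3 by -1.32 ± 0.23 and Fos by -0.57 ± 0.11. Of all microglial genes 2.61% were lower and 4.02% higher. The lower members numbered 4 without each of PBS nonstim replicate 2 and Cisplatin stim replicates 1 and 2, and none passed in either direction with the ribosomal RNA-like share in the model. Replication-dependent histone genes were lower in 7 of 18 cases against the same 2.61%, 4 without Cisplatin stim replicate 2, 12 without Cisplatin nonstim replicate 3 and 1 with that share in the model. Hist1h4d (-1.72 ± 0.25) and Hist1h1e (-1.27 ± 0.17) were among them, and reads of histone genes are hard to assign, since a share of 0.347 of the 31-base words of Hist1h1e transcripts occurs in other genes. Cytosolic ribosomal protein genes passed in 37 of 82 cases, all higher, where 4.02% of all genes were higher. That count was 9 without Cisplatin stim replicate 2, 12 without PBS nonstim replicate 2, 19 without PBS nonstim replicate 3, 20 without PBS nonstim replicate 1 and 1 with the ribosomal RNA-like share in the model.

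In astrocytes, which feed neurons and clear glutamate, Fkbp5, Etnppl and Rhou were among the higher genes. Fkbp5 stood at 3.06, 1.66 and 2.54 CPM in controls and at 39.5, 45.3 and 37.2 CPM in Cisplatin stim (4.14 ± 0.40, edgeR adjusted p = 2.23e-07). Etnppl, an astrocyte enzyme that breaks down phosphoethanolamine, went from 128, 132 and 84.5 to 597, 401 and 408 CPM (2.03 ± 0.19, edgeR adjusted p = 2.23e-07). The small GTPase Rhou went from 35.9, 48.7 and 46.4 to 131, 160 and 126 CPM (1.69 ± 0.17). No stimulated library overlapped a control for any of these 3 genes. Cdkn1a rose by 2.70 ± 0.52, but unevenly, from 3.82, 9.57 and 0.635 to 50.4, 11.6 and 39.0 CPM. Mfsd2a, a transporter of lysophospholipids carrying omega-3 fatty acids, rose by 1.30 ± 0.18, and Sult1a1 by 2.08 ± 0.26. Of 18 glucocorticoid genes 8 rose and none fell, where 1.52% of all genes were higher, with a median of 0.82 over the 18. The count was 3 with DESeq2, and also 3 with the ribosomal RNA-like share in the model.

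Lower in astrocytes were Them4, a thioesterase (58.1, 103 and 118 against 20.4, 31.1 and 35.3 CPM, -1.67 ± 0.19, edgeR adjusted p = 3.78e-06), and the glutamate receptor Grm3 (-1.17 ± 0.17). Fabp7, a fatty acid binding protein of immature astrocytes and radial glia, fell by -1.60 ± 0.21, with the highest stimulated library at 154 CPM against a lowest control of 152 CPM. Genes of reticulum chaperones and the unfolded protein response fell in 5 of 15 cases with none higher, where 1.21% of all genes were lower. Hsp90b1 (-0.76 ± 0.14) was 1 of the 5. Of these 1 or 2 passed without each of PBS nonstim replicates 1, 2 and 3 and Cisplatin stim replicates 1 and 3, and 8 with the ribosomal RNA-like share in the model. The count of called astrocyte genes fell from 277 to 126 without PBS nonstim replicate 3 and to 150 without PBS nonstim replicate 2.

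Endothelial cells, which line brain capillaries and form the blood-brain barrier, had 4 of 17 tested p53 genes higher and none lower. Of all genes tested there 1.87% were higher. A difference from the count of 3 in oligodendrocytes was not tested, and DESeq2 gave 3 in each of these types. Trp53inp1, a stress-induced p53 cofactor, went from 24.4, 38.1 and 32.7 to 127, 135 and 181 CPM (2.19 ± 0.20, edgeR adjusted p = 1.47e-06). Phlda3, an inhibitor of Akt signalling, went from 6.09, 11.9 and 16.3 to 6.68, 82.0 and 79.5 CPM (2.40 ± 0.33). Trp53inp1 was separated in all libraries, whereas Phlda3 was high in replicates 2 and 3 and at the control level in replicate 1. Fas, the death receptor, rose by 1.20 ± 0.20. Cdkn1a was abundant in controls here (346, 804 and 351 CPM) and reached 1189, 998 and 712 CPM (0.98 ± 0.26, edgeR adjusted p = 0.0396), a call lost without any 1 of 7 libraries: PBS nonstim replicates 1 and 3, Cisplatin stim replicates 1 and 2, PBS stim replicates 2 and 3 or Cisplatin nonstim replicate 3. The p53 count ranged from 3 to 5 when single libraries were left out and was 1 with the ribosomal RNA-like share in the model.

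Ccn2, Adm and Vwf were among the genes higher in endothelium. Ccn2, a matricellular protein induced by mechanical stress, went from 67.0, 52.5 and 25.3 to 404, 593 and 324 CPM (3.16 ± 0.36, edgeR adjusted p = 1.85e-05). Adm, the vasodilator peptide adrenomedullin, went from 65.5, 20.3 and 20.8 to 237, 162 and 120 CPM (2.34 ± 0.26), and Vwf, the clotting protein von Willebrand factor, from 123, 145 and 128 to 361, 557 and 402 CPM (1.72 ± 0.22). All 3 were apart in every library. The carrier of insulin-like growth factors Igfbp3 rose by 2.91 ± 0.36, and Slc2a1, the barrier's glucose transporter, by 0.93 ± 0.15. Of 11 hypoxia genes 7 rose and none fell, where 1.87% of all genes were higher, and of 8 genes of endothelial activation 4 rose. The hypoxia count was 4 without PBS nonstim replicate 1 and 2 without Cisplatin stim replicate 1, and with the ribosomal RNA-like share in the model the 2 counts were 3 and 1. Glucocorticoid genes rose in 8 of 16 cases, with Zbtb16 at 2.76 ± 0.44, Sult1a1 at 2.33 ± 0.24 and the kinase Map3k6 at 1.74; the count was 3 without PBS nonstim replicate 3 and 5 without Cisplatin stim replicate 1 or 2, and 0 with the ribosomal RNA-like share in the model.

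Interferon-induced genes were lower in endothelium, in 12 of 27 cases with none higher, where 0.982% of all genes were lower. Slfn2, a regulator of lymphocyte quiescence, stood at 67.0, 70.3 and 60.9 CPM in controls and at 20, 17.1 and 17.4 CPM in Cisplatin stim (-1.89 ± 0.27, edgeR adjusted p = 0.000253). Ifi27l2a was at 63.9, 28.8 and 46.1 CPM and at 0, 0 and 7.45 CPM (-3.53 ± 0.63). Neither gene overlapped between groups. Of 13 genes of MHC class I presentation, by which cells show peptides to T cells, 6 fell: the light chain B2m went from 1059, 995 and 1327 to 387, 523 and 762 CPM (-1.04 ± 0.16), and the immunoproteasome subunit Psmb8 from 170, 174 and 175 to 76.8, 75.2 and 98.1 CPM (-1.03 ± 0.15). The interferon count was 6 without PBS nonstim replicate 3, 3 without Cisplatin stim replicate 2 and 0 with the ribosomal RNA-like share in the model, and the MHC class I count was 2 without each of PBS nonstim replicates 1 and 3 and Cisplatin stim replicate 2 and 0 with that share in the model. Markers of microglia moved with both lists: their summed level in the endothelial sums ran from 89.1 to 163 CPM in controls and from 27.4 to 73.9 CPM in Cisplatin stim. Of 7 microglial markers 3 were tested there and 1, C1qa, was called lower. None of the 7 was at 0 in all 6 libraries, and their part in the 2 results was not tested. Endothelial calls in all fell from 232 to 105 without PBS nonstim replicate 3, to 108 without Cisplatin stim replicate 2 and to 11 with that share in the model.

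**Figure D3:**
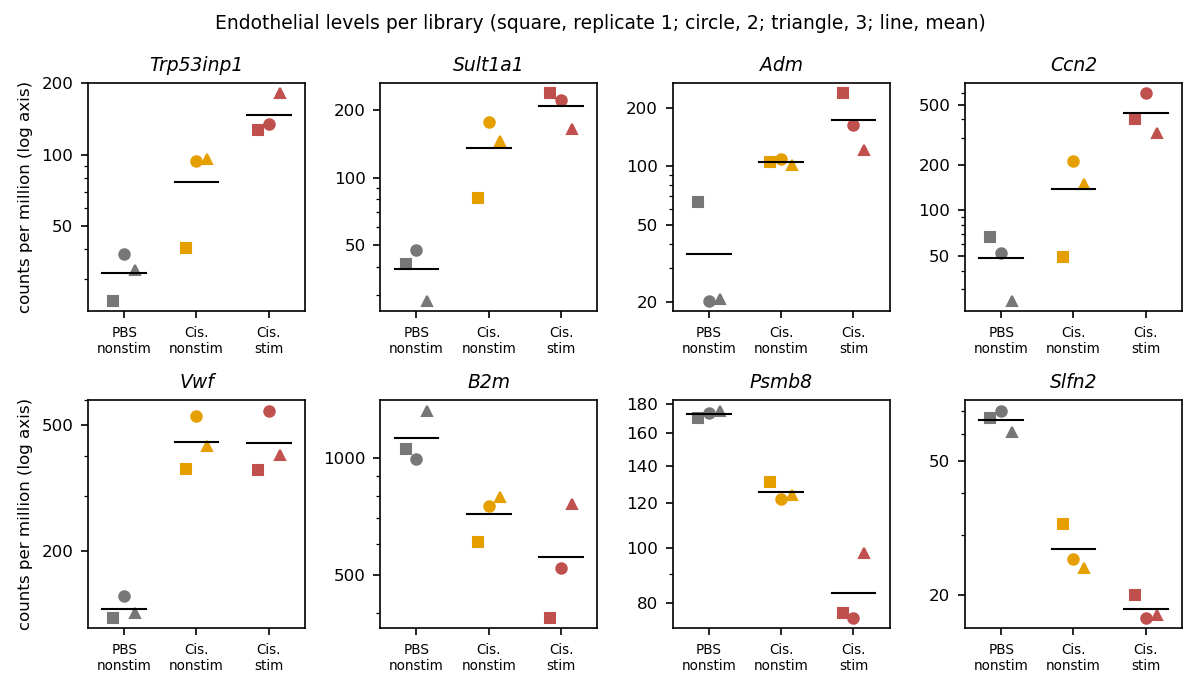
Level in CPM (y axis, log scale) of 8 genes in endothelial cells of each library, by group, with the group mean as a line. Trp53inp1, Sult1a1, Adm, Ccn2 and Vwf are higher in the 3 Cisplatin stim libraries than in any PBS nonstim library, and B2m, Psmb8 and Slfn2 are lower.

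Pericytes showed their largest rise in Spp1, which encodes the secreted phosphoprotein osteopontin. It stood at 97.7, 28.4 and 88.1 CPM in controls and at 2227, 675 and 396 CPM in Cisplatin stim (3.73 ± 0.31, edgeR adjusted p = 1.12e-07), with the lowest stimulated library above the highest control. Sult1a1 (2.29 ± 0.26), Ccn2 (1.91 ± 0.27), Igfbp3 (2.88 ± 0.45) and Adm (2.75 ± 0.43) rose here too, as they did in endothelium. The pericyte sums also carried endothelial markers, and their summed level ran from 11393 to 12120 CPM in controls and from 9953 to 12593 CPM in Cisplatin stim, with none of the 6 markers called and none at 0. Of 42 pericyte calls 12 were made without Cisplatin stim replicate 2, 24 without PBS nonstim replicate 3 and 77 without PBS nonstim replicate 1, and 1, Spp1, was made with the ribosomal RNA-like share in the model.

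In OPCs, the dividing precursors of oligodendrocytes, Chst2, a sulfotransferase that modifies surface sugars, had the smallest p. It went from 278, 201 and 176 to 1185, 625 and 640 CPM (1.88 ± 0.16, edgeR adjusted p = 8.86e-10). Cdkn1a went from 2.07, 8.03 and 16.6 to 66.9, 106 and 68.9 CPM (3.18 ± 0.48, edgeR adjusted p = 8.21e-05). The groups did not overlap for either gene. The secreted protease Htra1 rose by 1.95 ± 0.20, Mt1 by 1.24 ± 0.16 and Fkbp5 by 1.88 ± 0.35, and Pcp4, a calmodulin regulator, fell by -1.40 ± 0.25. Calls with the ribosomal RNA-like share in the model numbered 22 against 51.

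Neurons had 451 calls, 364 of them higher, but the authors' neuron class was made up differently in the 2 groups. Cluster 10, whose cells had a median mitochondrial share of 31.8%, held 32.6%, 29.3% and 24.7% of the neurons in PBS nonstim and 78.1%, 80.4% and 51.3% in Cisplatin stim. The median mitochondrial share of all neurons was 18.2%, 7.76% and 14.0% in controls and 40.9%, 29.8% and 19.2% in stimulated cisplatin mice. Ribosomal protein genes were called higher in 76 of 81 cases and nuclear genes of oxidative phosphorylation in 37 of 76. Of all neuronal genes 5.55% were higher. Without PBS nonstim replicate 3 both counts were 0, and without Cisplatin stim replicate 2 both were 2.

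Single neuronal genes that passed whichever library was left out included Mt2 (85.5, 149 and 96.5 against 258, 431 and 390 CPM, 1.69 ± 0.27, edgeR adjusted p = 0.00298), Fam107a, an actin-associated stress gene (2.72 ± 0.43), and Ptgds, the prostaglandin D synthase (1.86 ± 0.30). All 3 tested metallothionein genes were higher in neurons, where 5.55% of all genes were, and 1 to 3 were higher with single libraries left out. None of them passed without cells above 10% mitochondrial UMIs, within cluster 10 alone or with the ribosomal RNA-like share in the model. Npas4, the activity-dependent transcription factor of neurons, fell by -2.0 ± 0.46, and the presynaptic glutamate receptor Grm7 by -1.95 ± 0.43, both lost without Cisplatin stim replicate 1 or 2 or PBS nonstim replicate 1. Markers of other cells moved with these results: summed oligodendrocyte markers ran from 853 to 3257 CPM in the neurons of controls and from 3173 to 5156 CPM in Cisplatin stim, with 3 of 4 tested members higher, and astrocyte markers from 1287 to 1940 and from 2055 to 7683 CPM, with 4 of 7 higher. The summed neuron markers ran from 6865 to 21313 CPM in controls and from 2994 to 5017 CPM in Cisplatin stim. None of the 7 tested neuron markers was called. The part of these marker levels in the rises and falls of single genes was not tested. Within cluster 10 alone, added after the data were seen, 0 of 1910 genes passed with edgeR and 208 had an unadjusted p under 0.05. The neuronal count was 72 without cells above 10% mitochondrial UMIs, 14 without PBS nonstim replicate 3, 34 without Cisplatin stim replicate 2, 155 without PBS nonstim replicate 1, 232 without PBS nonstim replicate 2 and 0 (358 at an unadjusted p under 0.05) with the ribosomal RNA-like share in the model.

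The single immune call was Fcna, a ficolin of macrophages that binds microbial sugars. It was at 0, 26.7 and 24.7 CPM in controls and at 187, 570 and 357 CPM in Cisplatin stim (4.17 ± 0.56, edgeR adjusted p = 0.0135), and was not called without any 1 of the 3 PBS nonstim libraries. With edgeR no gene passed in the choroid plexus over all libraries (1394 at an unadjusted p under 0.05, and 65 with DESeq2), while 807 did without PBS nonstim replicate 1 and 2620 in the second batch alone. Sult1a1 at 1.86 ± 0.43 and Cdkn1a at 0.79 ± 0.31, both looked up after their values were seen, did not pass there, and its main product Ttr, the thyroid hormone carrier transthyretin, gave 0.79 ± 0.44.

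Across cell types a small set of genes, collected after the values were seen, was higher in most of them. Rbm3 and Cirbp, RNA-binding proteins induced by cooling, were called higher in 7 of 9 types each, in oligodendrocytes from 74.5, 63.4 and 111 to 270, 415 and 408 CPM for Rbm3 (2.14 ± 0.28) and from 95.9, 76.8 and 99.8 to 283, 278 and 285 CPM for Cirbp (1.65 ± 0.18). In the remaining 2 types, immune cells and choroid plexus, their log2 fold changes of 1.53, 1.94, 1.68 and 1.57 were of like size and did not pass. With the ribosomal RNA-like share in the model both passed in oligodendrocytes, Rbm3 but not Cirbp in astrocytes, microglia and OPCs, and neither in endothelium, pericytes or neurons. In neurons neither passed without cells above 10% mitochondrial UMIs. Sult1a1 and Fkbp5 were called in 5 of 7 tested types, Zbtb16 and Pnpla2 in 5 of 6 and Cdkn1a in 5 of 8. In neurons Fkbp5 gave 0.48 ± 0.44 and Zbtb16 -0.17 ± 0.31, neither of which passed. Ttr, the choroid plexus product, was called higher in 4 of 9 types: astrocytes, microglia, neurons (2.72 ± 0.53) and pericytes (0, 71.1 and 80.8 against 102, 350 and 331 CPM, lost without PBS nonstim replicate 2). The share of choroid plexus cells was also larger in Cisplatin stim, as given below for the makeup of the libraries, and a relation between the 2 was not tested. The iron storage gene Fth1 was called higher in 5 of 9 types and the myelin gene Mbp in 6 of 9, whereas Hsp90b1 was lower in 5 of 9. Mbp is an oligodendrocyte marker, and the part of stray oligodendrocyte transcripts in its calls in other types was not tested.

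**Figure D4:**
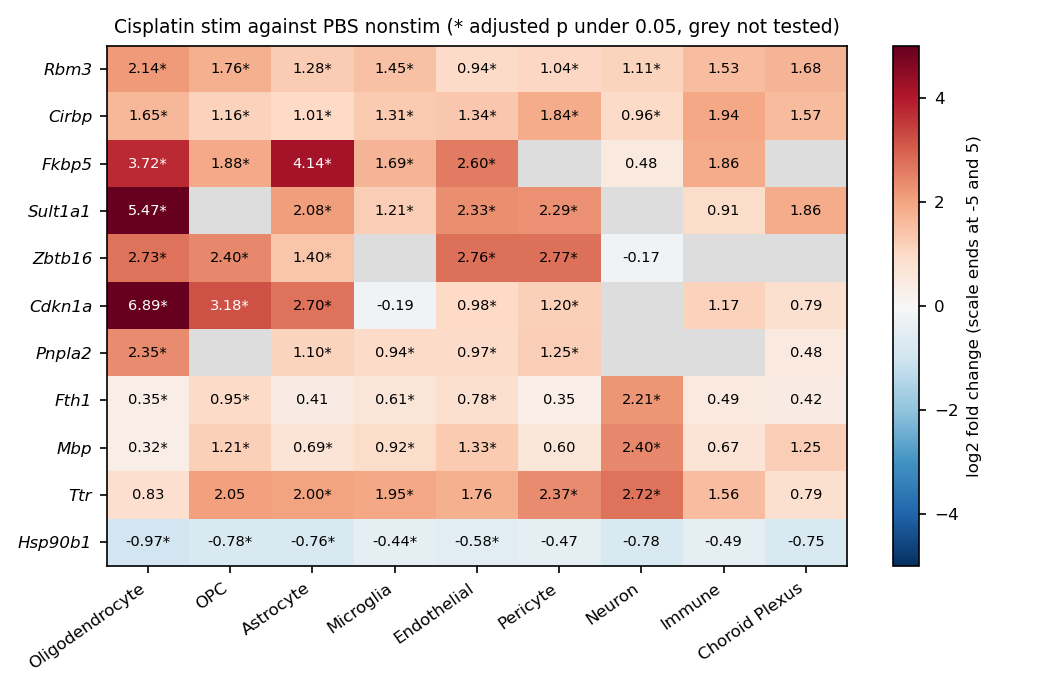
Log2 fold change of Cisplatin stim against PBS nonstim (colour) of genes described in the text (y axis) in each tested cell type (x axis), with calls marked by an asterisk and untested pairs in grey. Rbm3 and Cirbp are called higher in 7 of 9 types, and Hsp90b1 lower in 5 of 9.

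The makeup of the libraries differed as well. Progenitors, the class of immature and dividing neuronal cells, were 19, 38 and 36 cells in PBS nonstim (1.5%, 1.37% and 1.84% of cells) and 3, 1 and 6 cells in Cisplatin stim. The stimulated shares were 0.271% (95% Wilson interval 0.0924% to 0.795%), 0.101% (0.0178% to 0.569%) and 0.531% (0.243% to 1.15%), and the intervals cover counting error only. The largest of them was below the smallest control share, and the log2 fold change was -2.32 ± 0.48 (edgeR adjusted p = 0.00528 over cell types), a call kept whichever library was left out but not in the second batch alone (edgeR adjusted p = 0.0580). In Cisplatin nonstim progenitors were 0.570%, 0.221% and 0.450% of cells, a log2 fold change of -1.97 ± 0.42 against PBS nonstim (edgeR adjusted p = 0.00711). The direct difference between Cisplatin stim and Cisplatin nonstim was -0.35 ± 0.56 and did not pass. Too few progenitors remained for a test of their genes.

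Microglia made up 22.4%, 29.2% and 26.2% of control cells and 10.9%, 16.3% and 19.7% in Cisplatin stim (-0.75 ± 0.21, edgeR adjusted p = 0.0168). Choroid plexus cells made up 2.29%, 4.83% and 9.94% and 7.96%, 29.7% and 19.2% (1.75 ± 0.49, edgeR adjusted p = 0.0168), with overlap between groups. Both calls were lost without PBS nonstim replicate 1 or 2 or Cisplatin stim replicate 1 or 2. With TMM scaling over cell types the microglial share no longer passed (edgeR adjusted p = 0.184). Nor did the microglial share pass with the 6 libraries alone (edgeR adjusted p = 0.132). In Cisplatin nonstim the choroid plexus share gave 1.94 ± 0.49 against PBS nonstim (edgeR adjusted p = 0.0114). The microglial share gave -0.38 ± 0.21 there and did not pass. Neither share passed in the direct test of Cisplatin stim against Cisplatin nonstim. The shares of a library sum to a whole, so that a larger share of one type lowers the others. An exact permutation test within batches, two-sided, gave p = 0.167 for each of the 3 types, the smallest value that its 12 arrangements allow.

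**Figure D5:**
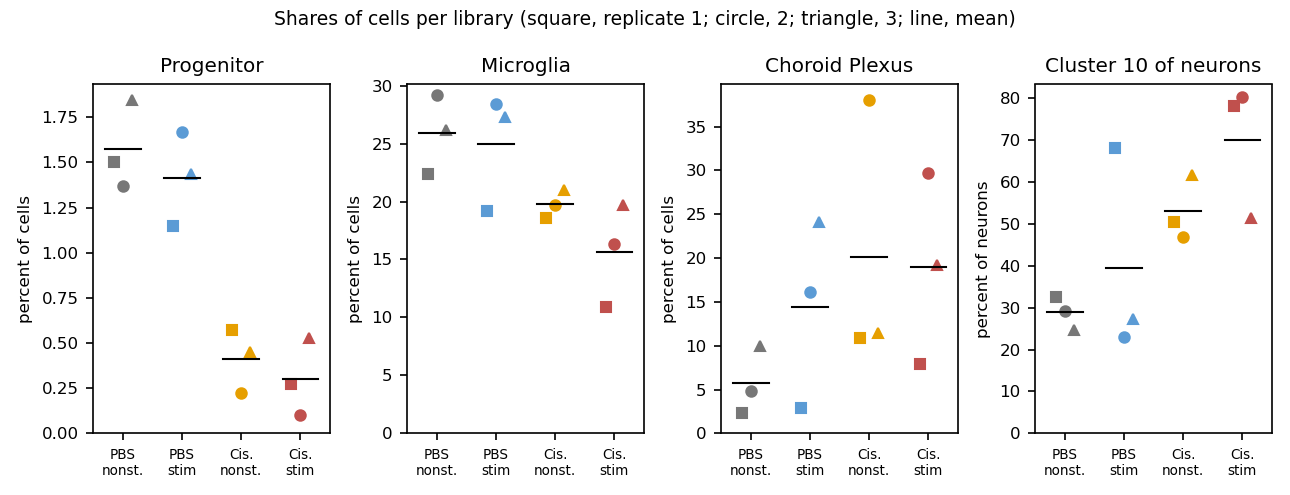
Share of each library's cells that were progenitors, microglia or choroid plexus, and share of its neurons in cluster 10 (y axes, percent), as points by group with the mean as a line. Progenitors lie between 1.37% and 1.84% in PBS nonstim and between 0.101% and 0.531% in Cisplatin stim.

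Set beside the unstimulated cisplatin mice, the stimulated ones stood further from control for the oligodendrocyte genes given next. The single genes were named by their values in Cisplatin stim against PBS nonstim, and the direct test uses the same Cisplatin stim libraries. That choice favours a larger distance in Cisplatin stim, and its part in the differences was not tested. The comparison of Cisplatin nonstim with PBS nonstim called 1142 gene tests (1.64%), and that of Cisplatin stim with Cisplatin nonstim 136 (0.196%), of which 100 were in oligodendrocytes (0.991%); the first shares its PBS nonstim libraries with the main comparison and the second its Cisplatin stim libraries, so their counts are not independent. In oligodendrocytes Cdkn1a averaged 37.3 ± 18.8 CPM (SD, n = 3) in Cisplatin nonstim against 489 ± 410 in Cisplatin stim and 3.2 ± 3.02 in PBS nonstim, and was higher by 3.44 in the direct test of stimulated against unstimulated cisplatin mice (edgeR adjusted p = 1.06e-05). Cxcl12 averaged 38.4 ± 15.5 CPM, Itgad 72.8 ± 22.8 CPM and Plin4 37.3 ± 15.4 CPM in Cisplatin nonstim, between the other groups, and differed by 1.77, 1.22 and 1.65 in the same test. Of the 18 tested glucocorticoid genes 13 were higher in Cisplatin nonstim than in PBS nonstim (3.33% of all genes were) and 13 were higher in Cisplatin stim than in Cisplatin nonstim (0.723% of all genes). PBS mice given stimulation did not show the same levels: Cdkn1a was at 1.07, 3.84 and 2.67 CPM, Cxcl12 at 1.07, 3.14 and 6.86 CPM and Plin4 at 5.36, 4.54 and 4.57 CPM in their oligodendrocytes.

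Other genes stood at a similar distance from control with and without stimulation. Endothelial Vwf gave 1.74 in Cisplatin nonstim and 1.72 in Cisplatin stim, with a direct difference of -0.02 ± 0.20, and Phlda3 gave 2.38 and 2.40 (0.02 ± 0.24). In microglia Pim1, a survival kinase, gave 1.53 and 1.5 (-0.04 ± 0.20), and in oligodendrocytes Sparc, a matrix glycoprotein, gave 1.22 in both (0.00 ± 0.15). No direct test of these genes passed, which does not show that their levels were equal.

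A few genes, collected after their values were seen, were called in Cisplatin nonstim against PBS nonstim and moved back in the direct test. Apod in pericytes was at 1.93 in Cisplatin nonstim and at 0.09 in Cisplatin stim, and Ptgds in OPCs at 1.47 and 0.22. Gimap6 in endothelium was at -0.61 and 0.11, Gstp1 in oligodendrocytes at 0.88 and -0.16 and Rps27rt in oligodendrocytes at -1.08 and 0.15. Pericyte Ttr was at 5.30 and 2.37, closer to control but still called (edgeR adjusted p = 0.00537). These were 6 of 8 gene and type pairs that met this description, the others being Gstp1 in microglia (0.86 and -0.96) and Usp50 in oligodendrocytes (-0.90 and 0.73).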

How the data were processed

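Libraries were prepared with 10x Genomics 3' v3.1 chemistry from enzymatically dissociated hippocampi of perfused mice, per the labels' protocols, with a target of 5000 cells each. The submitters' processing notes name Cell Ranger 5.0.0, Scanpy and mm10 without their roles, and no source used here gives the annotation. Raw UMI counts were deposited for 19834 cells and 32285 genes, at least 500 genes per cell, and the authors' own cell types and clusters were kept. The authors' deposited quality table, a signal per cell, and their deposited mean per gene, a score, entered no test. Mitochondrial shares were computed from the counts of the 13 mitochondrially encoded genes, and the 4868 cells above 10% were kept.

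UMIs of each cell type were added up within a library if it held 10 or more cells of the type, and 9 types were tested. The quasi-likelihood model of edgeR 4.0.16 (R 4.3.3) used TMM scaling, filterByExpr and terms for the 4 groups and the batch, with the spread estimated from all 12 libraries together. P-values were Benjamini-Hochberg adjusted within each type and comparison at a threshold of 0.05. A log2 fold change comes from that fit, and ± is a standard error unless called SD. The CPM of a gene scales its count to the TMM-scaled UMIs of the genes kept by the filter, per type and library. Summed marker levels scale to all UMIs of that type in its library. Cell shares were tested by the same model on cell counts with the library total as offset. The design text does not say outright that replicates 2 and 3 came from different animals, so p-values measure only the spread between these libraries, which may be technical. Same-numbered libraries did not deviate together (r of 0.041, 0.014 and 0.060), so replicate numbers were not used as pairs.

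The named genes were the 5 with the smallest p per direction in the 4 types with most calls and 2 in the others, up to 4 called members of each gene list in the type with most and 2 elsewhere, and 2 per direction for Cisplatin nonstim, leaving out unnamed gene models. The members and lists were chosen with earlier results of these data known. On simulated data with 200 genes changed by a log2 fold of 2, the fit recovered 95.0% for the oligodendrocyte comparison (10 false calls, 10094 genes) and 89.5% for that in pericytes (13 false calls, 6591 genes). The simulated counts held no difference between batches and none in the ribosomal RNA-like share, and smaller changes were not simulated. These rates therefore do not carry over to the calls on the real libraries. Alternatives were DESeq2 1.42.0, median-ratio (RLE) factors, no filter, the 6 libraries alone, the second batch alone, a replicate block, the ribosomal RNA-like share as covariate, cells under 10% mitochondrial and each library left out. Gene coordinates are those of GENCODE M21 on GRCm38, and promoters are from RefSeq (GRCm38.p6), with entries for 18 of 20 glucocorticoid and 18 of 25 p53 genes.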

Additional observations from a re-analysis of the deposited data

Results flagged for a closer look

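Several genes were called in opposite directions in 2 cell types of the same comparison, Cisplatin stim against PBS nonstim. The difference between the types was not tested, and each value below is one log2 fold change minus the other. The largest was Slfn2, higher in microglia (1.08) and lower in endothelium (-1.89), a gap of 2.97. Jdp2 was higher in microglia (2.15) and lower in oligodendrocytes (-0.62), a gap of 2.78. The growth factor gene Ptn was higher in neurons (1.38) and lower in endothelium (-1.05), a gap of 2.43. Itih3 was higher in astrocytes (0.72) and lower in oligodendrocytes (-1.69), a gap of 2.41. The MHC class I heavy chain H2-K1 was higher in oligodendrocytes (1.37) and lower in endothelium (-0.74), a gap of 2.10, and a share of 0.228 of the 31-base words of its transcripts occurs in other genes. Hmgcs1, an enzyme of cholesterol synthesis, was higher in neurons (1.25) and lower in astrocytes (-0.76), a gap of 2.01. Gbp7, an interferon-induced GTPase, was higher in microglia (1.04) and lower in endothelium (-0.67), a gap of 1.71. With 3 libraries per group, no library could be tested as standing apart from its group.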

How the results depend on the processing

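Of 334 calls on genes named by the rule, 178 were kept whichever library was left out, 278 with DESeq2, 284 in the second batch alone and 107 with the ribosomal RNA-like share as a covariate, where 331 kept their direction. The covariate left 579 calls of 3404 over all types: 443 in oligodendrocytes, 55 in astrocytes, 33 in microglia, 22 in OPCs, 14 in immune cells, 11 in endothelium, 1 in pericytes and 0 in neurons (358 at an unadjusted p under 0.05), and 25 for Cisplatin nonstim against PBS nonstim. The second batch alone gave 7033 calls in all, 2620 in choroid plexus, 389 in endothelium, 86 in OPCs, 81 in pericytes and 2 in immune cells, and 6895 for Cisplatin nonstim against PBS nonstim, while 0 cell type shares passed there. DESeq2 gave 172 in astrocytes, 153 in endothelium, 65 in choroid plexus, 19 in pericytes and 18 in immune cells. Without the filter on low counts there were 420 in astrocytes, 413 in endothelium, 277 in choroid plexus, 107 in pericytes, 92 in immune cells and 88 in OPCs, 2582 for Cisplatin nonstim against PBS nonstim and 699 for Cisplatin stim against Cisplatin nonstim. Without cells above 10% mitochondrial UMIs there were 72 in neurons and 4 in choroid plexus. Neurons of cluster 10 alone gave 0 (208 at an unadjusted p under 0.05). The cause of these shifts was not tested.

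With single libraries left out, the total ran from 1616 to 4180, oligodendrocytes from 1021 to 1884, microglia from 187 to 791, neurons from 14 to 587, astrocytes from 126 to 315, endothelium from 105 to 296, pericytes from 12 to 77, choroid plexus from 0 to 807 and immune cells from 0 to 9. Cisplatin nonstim against PBS nonstim ran from 236 to 3223, Cisplatin stim against Cisplatin nonstim from 49 to 167, and the number of cell type shares that passed from 1 to 3. A fit with the replicate number as a block gave 3091 calls and changed no call on a gene named in the text. Median-ratio size factors moved the median of all choroid plexus genes to -0.11 and no call on a gene named in the text. Progenitors, with 1 to 38 cells per library, were too few for a test of their genes.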
